A study of Mus musculus with 8 samples.

Results

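Long runs of abutting accessible regions are stretches of open chromatin that the deposited table of this mouse muscle study lists as 5 or more rows laid end to end, each row starting where the previous one stops. They were found by sorting the rows of chromosomes 1 to 19 by position and joining rows whose start equals the preceding stop. The table held 489637 rows, 477757 of them on these chromosomes, and joining gave 362989 merged units. Of these units 1571 were long runs, 0.433% of units, and they held 8450 rows, 1.77% of rows.

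The assay was ATAC-seq, which reads out open chromatin from the places where a transposase can cut and tag DNA. It was applied to nuclei from gastrocnemius, a calf muscle, of mice aged 6 months. The 4 Vehicle libraries came from Cre+:iMSBmal1 fl/fl mice given vehicle, and the 4 iMSBmal1KO libraries from Cre+:iMSBmal1 fl/fl mice given tamoxifen. All mice thus carried Cre and floxed Bmal1, whose product is a transcription factor of the circadian clock. Tamoxifen and the loss of Bmal1 cannot be told apart in this design, and the promoter that drives Cre is not given in the sources used here. The labels do not say that the libraries came from separate mice, so p-values measure the spread between these libraries.

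Open chromatin in muscle lies mainly at promoters, where transcription starts, and at enhancers, which bind transcription factors and can act over long distances. An open element often has a nucleosome-free core flanked by less open DNA, so a broad element can be listed as neighbouring pieces of unequal signal. In fibres, promoters and enhancers of contractile, calcium-handling and metabolic genes are typically among the most open sites, and bHLH factors such as MyoD and the Bmal1 dimer bind E-box sequences.

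The values are a signal that scales each library's reads by its own factor, and a run's value is the sum over its rows. Depth was counted as reads within the listed rows, recovered from the smallest step of each library. It was 4.31 M in Vehicle 4 and 11.2 to 29.5 M in the other 7 libraries (M, 1000000 reads). In Vehicle 4, 16.5% of these reads lay on the mitochondrial chromosome, against 1.11% to 5.51% elsewhere. Reads outside the listed rows are not counted, so neither measure describes a whole library. The median long run held 11 reads in Vehicle 4 and 72.0 in iMSBmal1KO 1, and 28.0% of long-run rows were at 0 in Vehicle 4. Across the 1454 runs that passed the filter on low signal, Pearson's r of the log2 signal of Vehicle 4 with the other libraries was 0.81 to 0.89, and 0.90 to 0.96 among the other 7. These runs differ widely in level, so such correlations are only a description. Fibre markers (8 of 8 genes listed, among them Ckm and Ttn) summed to 19311 to 34113 in Vehicle and 28687 to 33737 in iMSBmal1KO. The low end in Vehicle was Vehicle 4, and Vehicle 1 to 3 lay at 28469 to 34113. Satellite cell markers (4 of 4) summed to 1056 to 1174 and 1075 to 1295. Fibro-adipogenic markers (5 of 5) summed to 534 to 763 and 576 to 802, and endothelial markers (5 of 5) to 3267 to 4290 and 3758 to 6086. Smooth muscle and pericyte markers (4 of 4) summed to 785 to 900 and 768 to 1044, macrophage markers (4 of 5) to 120.2 to 181 and 133 to 162, and Schwann cell markers (2 of 3) to 175 to 368 and 329 to 452. The part of other cell types in the results below was not tested, and open chromatin in fewer nuclei cannot be told apart from less open chromatin per nucleus.

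Several of the runs lie on promoters, and 6 of these are shown for what their runs do below. Ip6k3, an inositol hexakisphosphate kinase gene of muscle, carries the promoter run with the smallest p among those lower in iMSBmal1KO. Cdc42ep3, which encodes an effector of the GTPase Cdc42, is among the 10 runs with the most rows. Snhg10 (a small nucleolar RNA host gene), Tob1 (an antiproliferative factor), Sertad2 (a transcriptional coregulator) and Tnnc2 (troponin C of fast fibres) are among the 10 with the highest Vehicle signal per kb. Each sequence is the 250 bases before an annotated start, 5′ to 3′ on the gene's strand, from RefSeq on GRCm38.p6. The Cdc42ep3 and Snhg10 runs hold 2 annotated starts each, and a single window is shown for each. Capitals mark 4 motifs on either strand. They are CACGTG, the E-box form that the Bmal1 dimer binds, CAGCTG, an E-box form that myogenic factors bind, AGGTCA, the core of ROR and REV-ERB receptor sites, and GGGCGG, the GC box.
Ip6k3, chr17:27167765-27168014, minus strand: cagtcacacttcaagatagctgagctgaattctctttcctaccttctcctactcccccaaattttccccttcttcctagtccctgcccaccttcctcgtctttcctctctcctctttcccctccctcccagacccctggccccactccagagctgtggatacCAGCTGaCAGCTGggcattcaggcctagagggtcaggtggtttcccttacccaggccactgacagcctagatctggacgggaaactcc
Cdc42ep3, chr17:79355092-79355341, minus strand: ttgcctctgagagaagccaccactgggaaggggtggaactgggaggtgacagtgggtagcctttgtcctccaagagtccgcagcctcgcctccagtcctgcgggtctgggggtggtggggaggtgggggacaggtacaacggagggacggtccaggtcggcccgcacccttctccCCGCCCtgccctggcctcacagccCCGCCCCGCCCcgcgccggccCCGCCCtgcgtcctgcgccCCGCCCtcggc
Snhg10, chr12:105032280-105032529, minus strand: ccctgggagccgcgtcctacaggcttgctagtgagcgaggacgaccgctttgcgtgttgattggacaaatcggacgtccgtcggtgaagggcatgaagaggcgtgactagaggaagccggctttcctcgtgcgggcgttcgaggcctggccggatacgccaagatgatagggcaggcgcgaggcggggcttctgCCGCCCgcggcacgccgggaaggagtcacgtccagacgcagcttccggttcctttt
Tob1, chr11:94211204-94211453, plus strand: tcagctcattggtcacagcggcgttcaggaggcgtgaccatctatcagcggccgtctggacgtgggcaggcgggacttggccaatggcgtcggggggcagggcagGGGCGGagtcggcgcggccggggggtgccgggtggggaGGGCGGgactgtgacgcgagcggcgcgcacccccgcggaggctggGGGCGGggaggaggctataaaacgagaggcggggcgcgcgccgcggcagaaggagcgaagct
Sertad2, chr11:20542916-20543165, plus strand: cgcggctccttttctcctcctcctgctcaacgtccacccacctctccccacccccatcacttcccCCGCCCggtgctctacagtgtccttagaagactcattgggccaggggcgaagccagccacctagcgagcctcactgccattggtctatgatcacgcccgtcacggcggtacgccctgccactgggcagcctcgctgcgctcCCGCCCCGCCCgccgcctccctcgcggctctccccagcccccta
Tnnc2, chr2:164779735-164779984, minus strand: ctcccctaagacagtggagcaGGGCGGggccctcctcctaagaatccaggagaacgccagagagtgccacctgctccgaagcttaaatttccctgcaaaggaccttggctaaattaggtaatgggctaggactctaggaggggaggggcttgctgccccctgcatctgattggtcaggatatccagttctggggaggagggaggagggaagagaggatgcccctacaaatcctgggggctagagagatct
The Ip6k3 window holds 2 copies of CAGCTG set almost side by side and no GC box. In contrast, the Cdc42ep3 window holds 5 GC boxes, of which 2 overlap, the Tob1 and Sertad2 windows hold 3 each, of which 2 overlap at Sertad2, and the Snhg10 and Tnnc2 windows hold 1 each. The GC content was 56.0% at Ip6k3, 56.8% at Tnnc2 and 64.4% to 73.6% in the other 4 windows. CpG pairs numbered 2 at Ip6k3 and 3 at Tnnc2, the 2 muscle-enriched genes of the set, against 18 to 32 in the rest.

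More widely, 239 promoter windows of the RefSeq table overlapped 186 of the long runs. Their median GC content was 62.0% with 19 CpG pairs, beside 52.4% and 6 over all 32851 windows. GGGCGG was present in 59.8% of the windows in runs and in 32.7% of all windows, and CACGTG in 10.5% and 6.02%. By contrast, CAGCTG was present in 10.5% and 13.0%, and AGGTCA in 7.95% and 14.0%. All windows were counted whether open or not, and open promoters outside long runs were not compared. These differences can therefore not be read as particular to long runs. A match of letters is a description and does not show that a factor binds there.

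Most long runs were only just long. There were 1149 runs of 5 rows, 299 of 6, 85 of 7, 32 of 8, 4 of 9, and single runs of 11 and 13 rows. Below the minimum of 5 rows stood 3963 units of 4 rows, 18903 of 3, 58194 of 2 and 280358 lone rows. Runs spanned 269 to 2280 bp with a median of 592 bp. Their rows were short, with a median of 93 bp against 132 bp for lone rows, and no row in the table was shorter than 50 bp.

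**Figure D1:**
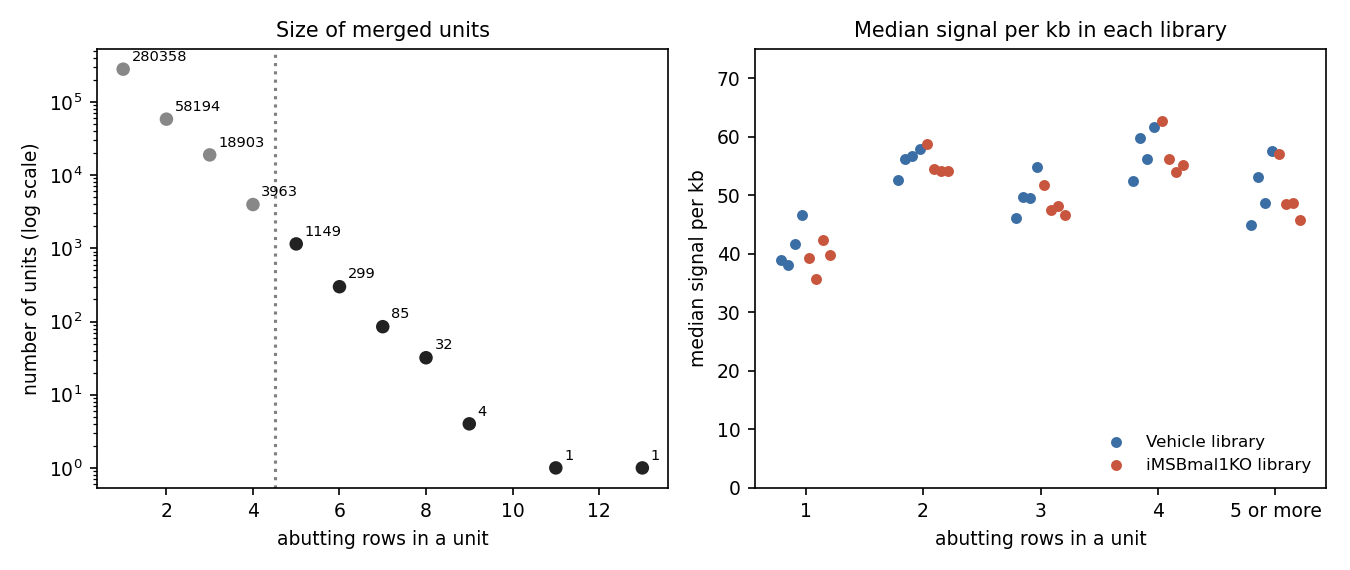
Left, the number of merged units (log scale) against the number of abutting rows in a unit, with long runs in black to the right of the dotted line. Right, the median signal per kb of units of each size, 1 point per library; long runs lie between 45.0 and 57.6 and lone rows between 35.7 and 46.7.

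Long runs were somewhat denser in signal than lone rows and not denser than units of 4 rows. The median signal per kb in Vehicle was 51.1 ± 5.45 (SD, n = 4) for long runs, 57.6 ± 4.07 for units of 4 rows and 41.4 ± 3.87 for lone rows. Long runs exceeded lone rows in 8 of 8 libraries, by a mean log2 ratio of 0.32 ± 0.14 (exact two-sided sign-flip permutation test, p = 0.0078). This p is the lowest the test allows. The same units were compared in every library, so it shows only that the direction was shared between libraries. Units of 2 and 3 rows had 55.9 ± 2.27 and 50.1 ± 3.58 in Vehicle, so the excess over lone rows was not particular to long runs. The row boundaries were drawn on these same libraries, so row number and signal are not independent measures. A few runs held most of the signal: the 157 strongest carried 57.9% of the Vehicle signal of all long runs.

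Rows of long runs were annotated much as lone rows were, with more at transcription starts. Of long-run rows, 31.2% were intergenic, 20.5% in introns after the first, 17.7% at a transcription start and 10.99% in a first intron. For lone rows these shares were 32.6%, 21.7%, 13.2% and 11.1%. At least 1 row at a transcription start was found in 22.6% of long runs, 22.4% of units of 4 rows and 13.2% of lone rows.

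The annotation separated runs by strength. The 355 runs with a transcription start had a median Vehicle signal per kb of 168 ± 19.8 and held 49.3% of the long-run signal. In contrast, the 478 wholly intergenic runs had 35.5 ± 6.83 per kb and held 20.6%, and the 738 other runs had 46.1 ± 3.99 and held 30.1%. The library medians of the 3 kinds did not overlap between promoter runs (141 to 214) and the rest (27.9 to 51.2). Within a run the signal was uneven: its highest row held a median of 40.7% of the signal, and 47.2% in runs with a transcription start. The densest row was an inner row in 1002 runs and an end row in 569. Every long run has more inner rows than end rows, so this count by itself does not show a central peak. The end rows held a median of 34.5% of a run's Vehicle signal on 36.8% of its length.

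**Figure D2:**
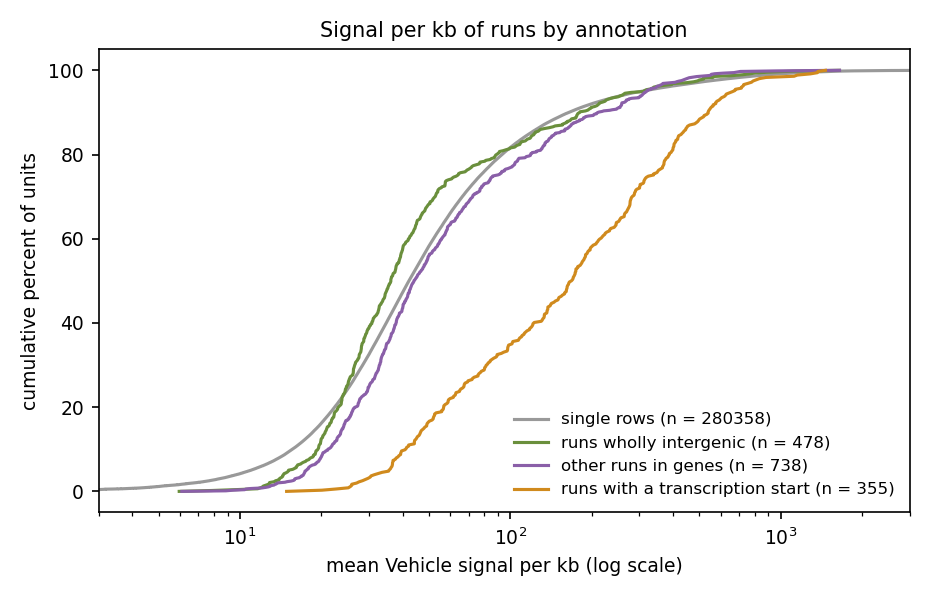
Cumulative percent of units against mean Vehicle signal per kb (log scale), 1 line for each kind of run and 1 for lone rows. The line of runs with a transcription start lies to the right of the others, with a median of 168 per kb against 35.5 for wholly intergenic runs.

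The 10 strongest runs per kb were 6 with a transcription start, 1 over 5′ UTR exons, 1 in an intron and 2 intergenic. Positions are given as the table lists them, with the start counted from 1 and the stop 1 base past the end, and they fit GRCm38. The highest value per kb, 1650, was in an intron of Nctc1 (chr7:142550040-142552320), a noncoding RNA of the H19 and Igf2 locus whose transcription unit overlaps a muscle enhancer. Its 6 rows summed to 4818, 4473, 3416 and 2339 in Vehicle 1 to 4 and to 3003, 5254, 6458 and 5202 in iMSBmal1KO 1 to 4. The groups overlapped, with Vehicle 4 lowest of all and iMSBmal1KO 3 highest. A single row of 1500 bp held a mean of 2958 in Vehicle, most of the run's signal, while 3 thinner rows beside it were at 625 to 775 per kb.

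Next came an intergenic run of 5 rows (chr2:180362410-180363640), 25.4 kb from Mir1a-1, which encodes the muscle microRNA miR-1, and 26.9 kb from Gata5. It measured 2549, 2070, 2049 and 1438 in Vehicle and 1719, 2105, 1959 and 2316 in iMSBmal1KO. The iMSBmal1KO values lay inside the Vehicle range, and the means were 2027 ± 455 and 2024 ± 251. A similar intergenic run (chr4:134299610-134300840) lay 14.3 kb from Trim63, the gene of the atrophy ubiquitin ligase MuRF1, and 11.8 kb from Pdik1l, with 1364 ± 260 in Vehicle and 1326 ± 83.3 in iMSBmal1KO. The Tnnc2 promoter run measured 2144, 1818, 1696 and 1276 in Vehicle and 1632, 1747, 1676 and 1838 in iMSBmal1KO, so that the groups overlapped and Vehicle 4 was lowest. It had twin summits, a row of 576 bp at the start with 1877 per kb and a row of 368 bp in the first intron with 1411 per kb, and 3 rows between them at 248 to 411 per kb.

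Among the other strong promoters the order was Snhg10 (1463 per kb), Tob1 (1372) and Sertad2 (1366), followed by the promoter runs of BC031181 (1152) and Catspere2 (1120), the latter a sperm calcium channel subunit, and a run of Efna1 (975), which encodes the ligand ephrin A1. Summed signal was 1317 ± 135 in Vehicle and 1094 ± 210.4 in iMSBmal1KO at Snhg10, 1978 ± 241 and 1848 ± 162 at Tob1, and 1475 ± 395 and 1502 ± 157 at Sertad2. The neighbours in this order differed by less than the spread between libraries. At BC031181 the Vehicle values were 819, 793, 1220 and 2383 and the iMSBmal1KO values 704, 723, 683 and 651. All 4 Vehicle libraries stood above all 4 iMSBmal1KO libraries, but most of the gap came from Vehicle 4, and the log2 change was -0.76 ± 0.28 (SE) with limma's adjusted p at 0.458.

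The runs with the most rows were not the strongest. Arrb1, the gene of β-arrestin 1, held the longest at 13 rows (chr7:99535192-99536709), 5 at its transcription start and 8 in the first intron. This run measured 245, 287, 285 and 335 in Vehicle and 320, 381, 271 and 326 in iMSBmal1KO, with overlapping groups. Its signal fell from 397 per kb in the row of 283 bp at the start to 37.2 and 43.8 per kb in its weakest rows. The 4 runs of 9 rows held between 19.7 and 89.5 in Vehicle. They lay in an intron of Efcab6, 6.58 kb from Taar1, 352 kb from Trib2 and at Hnrnpa2b1. The last 3 were annotated as intergenic, although the Hnrnpa2b1 run overlaps that gene in RefSeq.

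Of the 32 runs of 8 rows, 3 of the 4 with the highest Vehicle signal are given here. An intergenic run 0.24 kb past Tnnt3, the gene of fast troponin T (chr7:142516453-142518125), measured 1799, 1498, 1270 and 819 in Vehicle and 1252, 1645, 1775 and 1761 in iMSBmal1KO. The promoter runs of Carmn, the host RNA of miR-143 and miR-145, and of Cdc42ep3 had 1117 ± 149 and 1151 ± 124, and 669 ± 139 and 789 ± 52.6. In each of these 3 runs the groups overlapped.

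**Figure D3:**
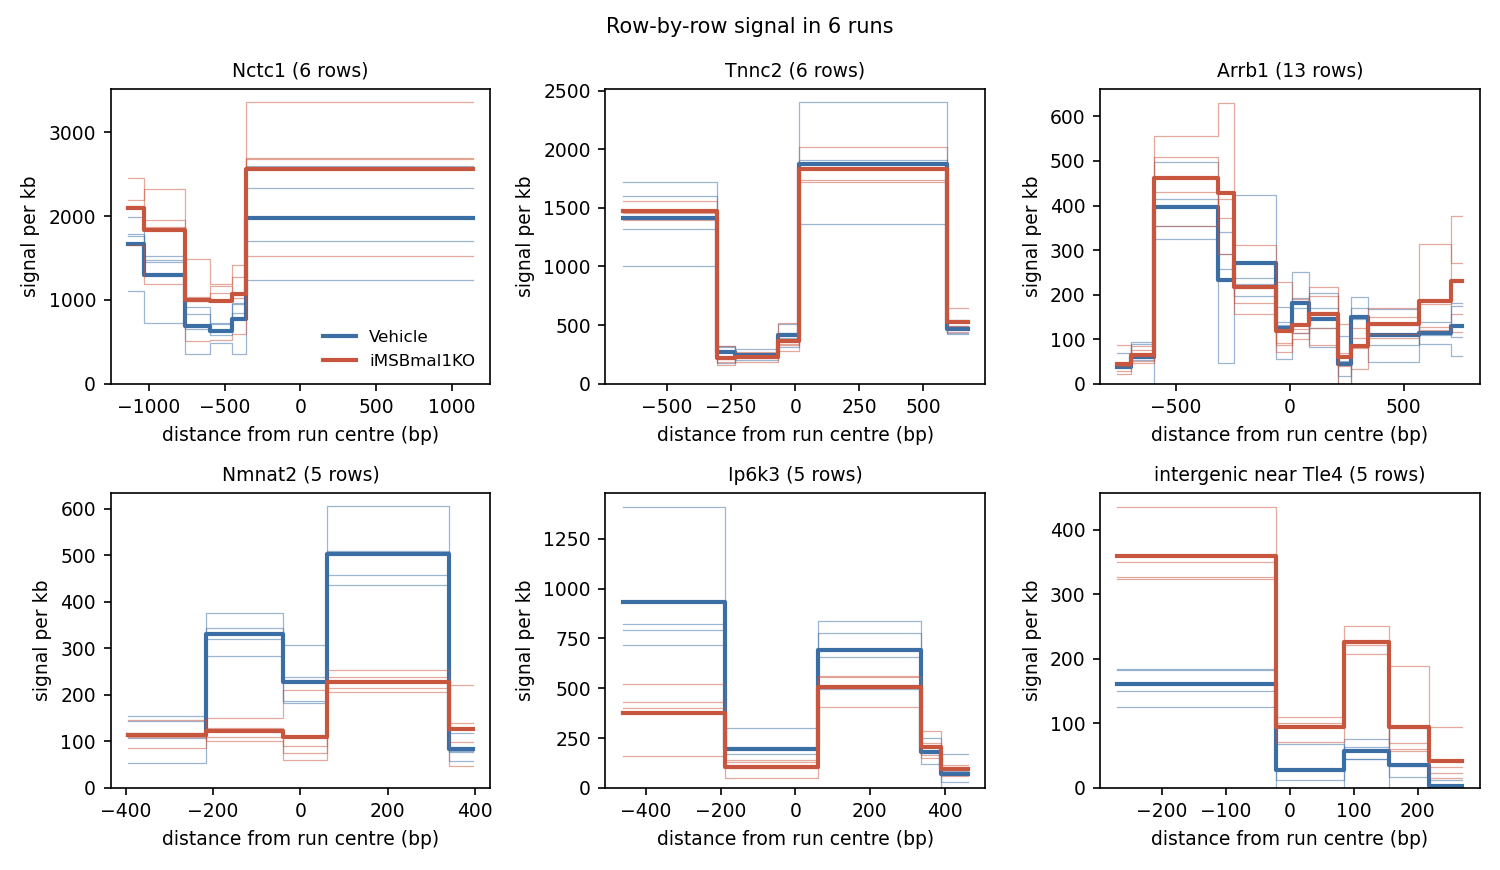
Signal per kb of each row against distance from the run's centre (bp) in 6 runs; thick lines are group means of 4 libraries and thin lines single libraries, Vehicle blue and iMSBmal1KO red. In Nmnat2 the groups part in the inner rows, 502 against 228 per kb in the row of 280 bp, while the first row is at 114 against 113 and the last at 82.7 against 127.

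The long runs named 1015 genes, 3.79% of the 26790 genes with any row, and 488 runs had no gene. Among protein-coding genes 5.12% had a long run. Of the 1015 genes, 64 had 2 or more and 4 had 3: Rora, a nuclear receptor that activates Bmal1 transcription, Elmo1, Fam155a and the noncoding gene Morrbid. Genes with many rows have more chances of a run, which was not adjusted for.

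Among 24 clock genes 3 had a long run, and Arntl, which encodes Bmal1, had none. Its 82 rows formed units of at most 4 rows, and they summed to 2359 ± 334 in Vehicle and 3228 ± 176 in iMSBmal1KO (exact two-sided permutation test, p = 0.0286, the lowest this design allows). The sum over the whole gene does not check the deletion, since most of these rows can lie outside the deleted part. The run of Npas2 (chr1:39307151-39307620), a paralogue of Clock that pairs with Bmal1, lay in an intron and measured 10.7, 13.4, 12.7 and 31.3 in Vehicle and 32.1, 36.8, 27.4 and 30.1 in iMSBmal1KO. The groups overlapped only through Vehicle 4, which stood apart from the other Vehicle libraries, and the log2 change was 0.98 ± 0.33 (limma, adjusted p = 0.412). Over all 111 rows of Npas2 the sums were 729 to 962 in Vehicle and 1721 to 2276 in iMSBmal1KO.

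The 3 Rora runs were of unequal strength, at 149 ± 26.9, 95.6 ± 32.2 and 20.2 ± 4.81 in Vehicle and 141 ± 35.8, 119 ± 20.4 and 15.9 ± 4.00 in iMSBmal1KO. The 2 stronger ones lay in the first intron. A run of 8 rows at Csnk1d, a kinase of PER proteins, was annotated with 4 rows to a transcript end and 4 to a transcription start, and had 193 ± 80.5 and 212 ± 47.6. None of the 5 clock runs passed the test (log2 changes -0.33 to 0.98).

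Long runs were found at 8 of 39 sarcomere and Z-disc genes. Beside Tnnc2, Tpm1 (tropomyosin) had a run over its gene end with 927 ± 327 in Vehicle and 1018 ± 418 in iMSBmal1KO, Ldb3 (a Z-disc protein) one in an intron with 504 ± 111 and 584 ± 89.6, and Myom1 (an M-band protein) one at its start with 297 ± 46.5 and 320 ± 48.3. Of the 11 runs of this list 10 had a positive log2 change and 0 passed the test, with a median of 0.18 beside 0.10 over all units tested. Positive changes made up 60.1% of all units and 53.8% of long runs, and 271 of 364 in the strongest of 4 equal parts of the long runs. Vehicle 4 stood apart for this list, with 59079 summed over all rows of its genes against 81161 to 96741 in the other 7 libraries. Without Vehicle 4 the count was 7 of 11 and the median 0.04, and with any other library left out the count was 8 to 11 and the median 0.08 to 0.34. Myh4, the myosin heavy chain of fast fibres, had the largest difference among those named. Its run over exons and introns (chr11:67244264-67244978) measured 349, 265, 199 and 134 in Vehicle and 375, 421, 270 and 404 in iMSBmal1KO, a log2 change of 0.70 ± 0.25 (limma, adjusted p = 0.443). Vehicle 4 was lowest here, and Vehicle 1 lay within the iMSBmal1KO range.

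Calcium-handling genes had runs at 4 of 21 genes, and 0 of the 5 runs passed. Pvalb (parvalbumin, a calcium buffer) had 234 ± 65.3 in Vehicle and 240 ± 61.5 in iMSBmal1KO, and Atp2a1 (the fast-fibre calcium pump) 89.9 ± 18.99 and 115 ± 29.9. At Trdn, the gene of triadin, 1 library in each group stood far above the rest, Vehicle 2 at 138 and iMSBmal1KO 1 at 185, where the other 6 lay between 53.2 and 85.3. Metabolic genes with runs were Pfkm (phosphofructokinase, 430 ± 120 in Vehicle and 439 ± 64.3 in iMSBmal1KO), Ppp1r3a (a glycogen phosphatase subunit, 221 ± 65.1 and 239.6 ± 28.6), Hk2 (hexokinase, 213 ± 38.3 and 246 ± 25.4) and Tbc1d4 (a regulator of glucose uptake, 23.5 ± 6.04 and 19.7 ± 5.07). That is 4 of 28 listed glycolysis and glucose uptake genes, and 0 of the 4 runs passed.

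Regulators of fibre identity had runs at 8 of 37 genes, strongest at the promoters of Maf (461 ± 128 in Vehicle and 540 ± 37.5 in iMSBmal1KO) and Klf5 (461 ± 86.0 and 478 ± 63.4). Nfatc1, a calcium-responsive factor, had 243 ± 36.0 and 205 ± 17.9, and Tead1, which binds muscle MCAT elements, 239.9 ± 65.1 and 222 ± 26.1. Of 8 tested runs of this list 0 passed. The atrophy and glucocorticoid list had 6 runs at 5 of 16 genes, led by the Foxo3 promoter (432 ± 57.7 and 501 ± 88.8) and a Foxo1 intron (168 ± 32.1 and 159 ± 54.1). Log2 changes in this list were negative in 5 of 6 runs, with a median of -0.20, and 0 passed. Without iMSBmal1KO 4 they were negative in 3 of 6. At Fkbp5, a glucocorticoid target, the iMSBmal1KO libraries ranged from 8.78 to 90.7, wider than the Vehicle range of 19.2 to 47.3.

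Smaller lists held 1 gene each: Colq (the collagen tail of acetylcholinesterase) among 14 neuromuscular junction genes, Hoxc11 among 18 Hox and limb genes and Hspa8 (a constitutive chaperone) among 28 immediate-early and stress genes. Their highest log2 changes were 0.52, 0.41 and 0.59, and none passed. One Colq run held at most 8.56 in any library and was not tested. Of 8 fibre marker genes, which held 714 rows, 4 had a long run. The markers listed for satellite, fibro-adipogenic, endothelial, smooth muscle, macrophage and Schwann cells held 73, 55, 165, 96, 28 and 10 rows and had 0 long runs, a difference that was not tested.

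Between the groups, 2 long runs passed the test, an intergenic run on chromosome 19 that was higher in iMSBmal1KO and a run in an intron of Nmnat2 that was lower. The fit, limma-trend on log2(signal + 1) with Benjamini-Hochberg adjustment, was run over 122615 units, of which 48 were higher in iMSBmal1KO (0.0391% of units tested) and 83 lower (0.0677%). Scaling by total autosomal signal gave 71 and 196, while leaving out Vehicle 2 gave 116 and 78 and leaving out Vehicle 1 gave 20 and 21. Of the 1571 long runs 1454 passed the filter on low signal. Of these 1 was higher and 1 lower, 0.0688% each, and a single run in each direction cannot be told apart from the share over all units.

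The run that was higher (chr19:15047653-15048193) lies far from the genes used to name intergenic runs. Tle4, a corepressor gene, is 449 kb away on one side and Psat1, a serine synthesis gene, 857 kb on the other. The run measured 48.0, 56.5, 57.8 and 34.4 in Vehicle and 118, 148, 112 and 114 in iMSBmal1KO. Every iMSBmal1KO library exceeded every Vehicle library, on 11 reads in Vehicle 4 and 45 to 275 elsewhere. The log2 change was 1.32 ± 0.24 (SE, limma, adjusted p = 0.0185). All 5 rows had the higher mean in iMSBmal1KO, from 39.9 to 89.0 in the row of 248 bp, which held most of the signal, and from 4.00 to 15.9 in the third row. Without Vehicle 1, Vehicle 3 or iMSBmal1KO 2, 3 or 4 the adjusted p was 0.0537 to 0.128, and without Vehicle 4 it was 0.0079.

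The run that was lower lies in an intron of Nmnat2 (chr1:153065246-153066036), which encodes an NAD-synthesising enzyme known for its role in axon maintenance. It measured 269.7, 276, 232 and 209.5 in Vehicle and 128, 119, 119 and 128 in iMSBmal1KO. The groups were far apart, and the 4 iMSBmal1KO values lay within 10 units of each other. The log2 change was -0.99 ± 0.20 (limma, adjusted p = 0.0487). The difference sat in the 3 inner rows, for which Vehicle and iMSBmal1KO means were 58.2 and 21.4, 23.1 and 10.95, and 141 and 63.9. The first row had 20.4 and 20.3, and the last, which was too weak to be tested, 4.46 and 6.84. Leaving out any 1 library other than Vehicle 4 gave an adjusted p of 0.0908 to 0.207, and without Vehicle 4 it was 0.0049.

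**Figure D4:**
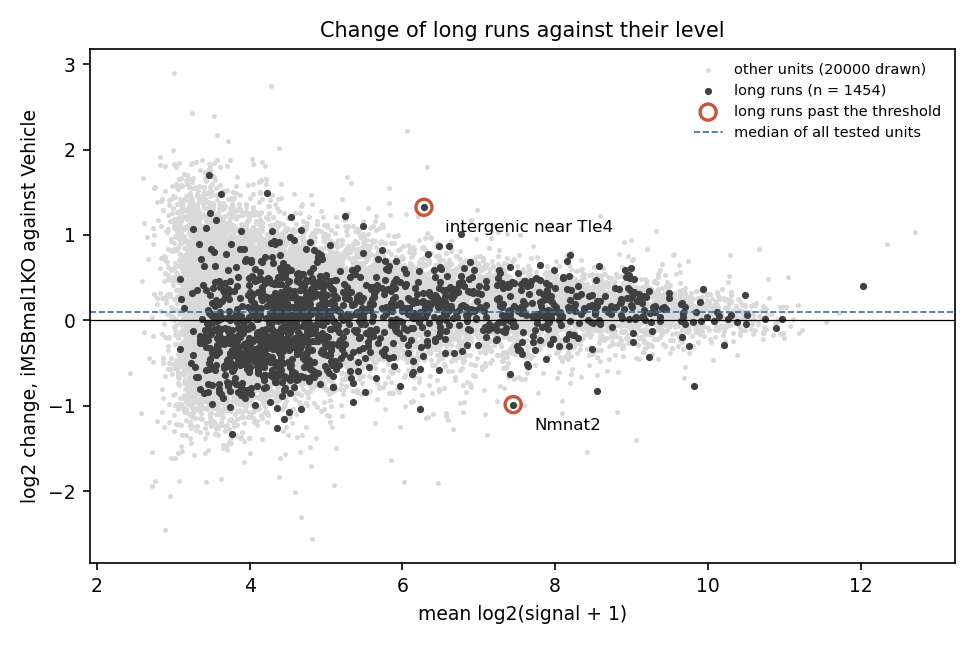
Log2 change of iMSBmal1KO against Vehicle for each tested unit against its mean log2(signal + 1); long runs are dark, 20000 other units drawn at random are grey, and circles mark the 2 long runs past the threshold. The 2 circled runs lie at 1.32 and -0.99, away from a cloud centred near the dashed median of all units at 0.10.

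The runs next in order of p did not pass. Higher in iMSBmal1KO by value were a run at the Ttll7 start (a tubulin ligase gene), with 8.53 to 24.7 in Vehicle and 28.9 to 42.9 in iMSBmal1KO, an intergenic run 112 kb from Trib2 (12.5 to 42.1 and 55.6 to 79.4), a run at Gm40841 (31.3 to 51.2 and 60.4 to 83.6) and an intergenic run 2.55 kb from Fermt2 (18.8 to 28.0 and 33.4 to 51.0). In these 4 the groups did not overlap, as in 3.52% of all tested units in that direction, and the log2 changes were 0.82 to 1.21 with adjusted p of 0.245 to 0.351.

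Lower by value was the Ip6k3 promoter run (chr17:27167054-27167978), with 486, 421, 718 and 419 in Vehicle and 189, 324, 349 and 290 in iMSBmal1KO. No iMSBmal1KO value reached the lowest Vehicle value, and the log2 change was -0.83 ± 0.22 (limma, adjusted p = 0.238). The gap was widest in the row of 274 bp at its 5′ UTR exon, 256 against 104, and smaller in the row of 278 bp at the start that covers the E-boxes shown above, 192 against 141. The Ip6k3 run passed in 2 of 18 alternatives, with total scaling (limma, adjusted p = 0.0420) and with limma-voom (adjusted p = 0.0237). It did not pass in the other 16, and without Vehicle 3 limma's adjusted p was 0.582. Runs of Btrc, a ubiquitin ligase subunit that acts on PER proteins (34.4 to 81.2 in Vehicle and 21.5 to 32.6 in iMSBmal1KO), of Apobec3, an antiviral deaminase (23.5 to 56.3 and 11.9 to 22.3), and 10.5 kb from Gatad2b (22.6 to 44.8 and 7.16 to 18.8) also did not overlap between groups, as in 1.95% of all tested units in that direction, with adjusted p of 0.315 to 0.365.

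**Figure D5:**
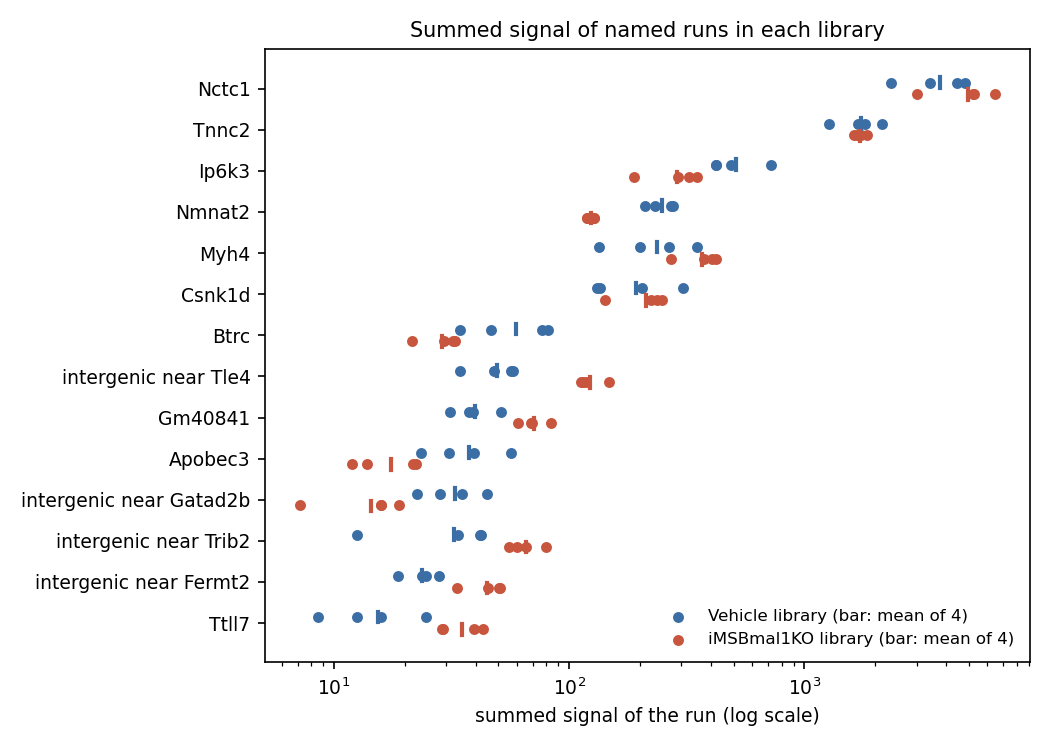
Summed signal (log scale) of 14 named runs in each library, with a bar at each group mean of 4 libraries. The groups do not overlap in the 10 runs chosen for the 5 smallest p in each direction, such as Nmnat2 (209.5 to 276 against 119 to 128). These were picked on p between the same groups, so their separation follows in part from the choice. The groups overlap in Nctc1, Tnnc2, Myh4 and Csnk1d.

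Over all tested long runs, groups did not overlap in 48 runs higher in iMSBmal1KO (3.30%, against 3.52% of all units) and 28 lower (1.93%, against 1.95%). At an unadjusted p under 0.05 stood 73 higher (5.02%, against 6.54%) and 48 lower (3.30%, against 2.91%). These shares were near the background. The median log2 change of long runs was 0.03 and that of all units 0.10. Without Vehicle 4 they were 0.01 and 0.03, and with loess scaling -0.08 and 0.01. The sign of the median for long runs thus depended on the scaling.

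Stronger runs had more positive changes. With tested long runs ranked by mean signal and cut into 4 equal parts, the median log2 change was -0.21 in the weakest part, then -0.06, 0.09 and 0.13. By kind of run, the median was 0.11 for runs with a transcription start, -0.02 for wholly intergenic runs and 0.01 for the others. Vehicle 4 moved with this pattern. In the weakest part its median signal was 18.8, the highest of the 8 libraries, and in the strongest part 174, the lowest. Of the 179 runs with under 100 reads in all, Vehicle 4 was the highest library in 77 and iMSBmal1KO 3 in 42. The part of depth in the pattern was not tested.

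Rows tested one by one gave 1 call inside long runs, an inner row of Nmnat2 (log2 change -1.41, adjusted p = 0.0389), among 2170 long-run rows tested (0.0461%, against 0.09% of all rows). The main row of the chromosome 19 run had an adjusted p of 0.0905 by itself. Of 390 runs with 3 or more tested rows, all tested rows had one sign in 127. The count that unrelated rows would give was not worked out, so this does not show whether rows of a run move together.

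Finally, 4 summaries per library were set against the 70 possible arrangements of the libraries (exact permutation tests, two-sided). Long runs held 1.27 ± 0.0562% of the autosomal signal in Vehicle and 1.24 ± 0.105% in iMSBmal1KO (exact p = 0.629). Of the long-run signal, 49.9 ± 0.847% and 50.6 ± 1.88% lay within 1000 bp of a start (exact p = 0.457). The highest row held a median of 41.7 ± 2.18% and 42.2 ± 1.07% of a run's signal (exact p = 0.8). The median log2 signal of long runs less that of other units was 0.59 ± 0.17 and 0.53 ± 0.11 (exact p = 0.6). All 4 differences were smaller than the spread between libraries, with an adjusted p of 0.8 from the exact tests.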

How the data were processed

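ATAC-seq signal of 8 libraries was read from the authors' deposited table, in which every value column matched a library by name. The submitters' processing notes name Partek, Bowtie2, MACS2, DESeq2, mm10 and GRCm39, without role, order or version. Duplicate removal and the transposase shift are not given in the sources used here. Gene positions matched GRCm38 for 99.9% of the names found in RefSeq (82.7% of 27552 names). In each library 98.3% to 99.8% of values were whole multiples of 1 step within 0.02 reads, which gave depth within the listed rows. The main tests used the signal as deposited, and limma-voom used the signal divided by this step.

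Abutting rows of chromosomes 1 to 19 were joined and summed, lone rows included, and limma-trend with robust moderation (limma 3.58.1, R 4.3.3) was fitted on log2(signal + 1) with group as the only term. Fold changes on this scale understate changes of weak units. Units were kept where at least 4 libraries reached 0.799 reads per M and the 8 libraries together held at least 15 reads. Called units had a Benjamini-Hochberg adjusted p below 0.05. Library summaries were adjusted over the 4 tests. On simulated libraries over 122615 units, 72 of 100 4-fold and 16 of 100 2-fold changes were called, and 0 unchanged units. All simulated units shared a single dispersion of 0.0394, taken from the units with most reads. Vehicle 4 was given no pattern of its own beyond its depth, so recovery in the real libraries can differ. Same-numbered libraries were not treated as pairs.

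Named runs were the 10 with most rows (ties by Vehicle signal), the 10 with the highest Vehicle signal per kb, those called or among the 5 smallest p in each direction, all runs of clock genes, and up to 4 by Vehicle signal in each of 15 other lists. Of the runs with most rows, 2 are not reported here. Members, lists and rules were chosen with earlier results of these data known. Promoters are RefSeq's. Intergenic runs are named by the nearest RefSeq protein-coding or microRNA gene. Genes with provisional symbols, such as those starting with Gm or LOC or ending in Rik, were left out of this naming. Alternatives covered scaling, filter, pseudocount, threshold, joining, minimum rows, test, block and each library left out. Tables and figures used Python 3.11.15, pandas 2.3.3, numpy 2.4.6 and matplotlib 3.10.9.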

Additional observations from a re-analysis of the deposited data

Results flagged for a closer look

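Of 128 groups of 4 libraries examined over the named runs and summaries, 5 held a library far from the other 3, where 6.4 would be flagged by chance. In the Npas2 intron run, Vehicle 4 stood at 31.3 against 10.7 to 13.4 in the other Vehicle libraries. In the Ttn run of the 2 that this gene holds with the higher signal, Vehicle 4 was at 53.2 against 109 to 113. At the Sertad2 promoter run Vehicle 4 was at 888 against 1594 to 1712. At the Trdn run Vehicle 2 was at 138 against 53.2 to 60.8. In the intergenic chromosome 19 run 449 kb from Tle4, iMSBmal1KO 2 was at 148 against 112 to 118, and without it the adjusted p of that run was 0.128. Vehicle 4, the shallowest library, was the distant one in 3 of the 5.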

How the results depend on the processing

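The number of long runs past the threshold was small and moved with most choices. From 2, it was 2 with median-of-ratios factors or a pseudocount of 5 and 3 with total or loess scaling. It was 1 without the filter, with a pseudocount of 0.5, with the highest row in place of the sum, with the replicate block or with rows tested one by one. It was 0 at a threshold of 0.01 or with a minimum of 8 rows, 7 with a minimum of 4 rows, and 5 with limma-voom. Joining across gaps of up to 100 bp gave 18900 runs, of which 38 passed among 18239 tested, so that members and count both rest on the joining rule. Over all units, 177 of 110955 passed with this joining. Of 122615 units, 644 passed with limma-voom, 267 with total scaling and 352 with loess scaling, against 131 in the main test. The counts in long runs cannot be read apart from these. Leaving out 1 library gave 0 to 2. Long-run rows past the threshold, 1 in the main test, were 0 to 3 with 1 library left out and 1 with the replicate block.

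Across 18 alternatives the chromosome 19 run near Tle4 had a log2 change of 1.13 to 1.41 and passed in 12, and the Nmnat2 run one of -1.14 to -0.93 and passed in 8. The adjusted p ranges were 0.0060 to 0.128 and 0.00049 to 0.207. With the replicate block Nmnat2 had an adjusted p of 0.0654. The replicate numbers did not pair the libraries (correlations of deviations -0.0628, 0.173, 0.0518 and 0.0236, with 1 of 8 libraries closest to its own number). Of 49 named runs described by level, 25 changed the sign of their log2 change under some alternative and 0 passed under any. Differences in library summaries (iMSBmal1KO less Vehicle) changed sign in 3 cases: the share of autosomal signal ranged from -0.0689 to 0.0133 percentage points with 1 library left out, the highest row's share from -0.517 to 1.07, and the median log2 signal from -0.123 to 0.0129. The planned count tests on whole reads were not run, because not every value came out whole. Scaling moved the median log2 change of all units from 0.10 to between -0.02 and 0.01. The median run held 11 reads in Vehicle 4, and the test called 16 of 100 simulated 2-fold changes over 122615 units; the part of depth in this was not tested.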
